A study of Mus musculus with 12 samples.

Results

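The Slc25 genes encode the mitochondrial carriers, proteins that move metabolites, nucleotides, cofactors and ions across the inner mitochondrial membrane. Their mRNA was read in 12 mouse kidneys. The members were chosen by name, from genes whose mouse symbol is Slc25a followed by a number. They came to 38 of the 13124 genes in the deposited count table. Of 46 such symbols that were looked up, 8 had no entry (Slc25a2, Slc25a18, Slc25a31, Slc25a41, Slc25a43, Slc25a47, Slc25a53 and Slc25a54), and those were not analysed here. The table holds only genes above a low minimum, so the 38 are the members expressed in at least some of these kidneys.

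The kidneys came from male C57BL/6 mice, 3 in each of 4 groups, and were taken 24 h after surgery. In 3 groups the mice underwent ischaemia-reperfusion injury (IRI) on one side: the blood supply of a kidney is shut off warm and later let back in. They had been given a monoclonal antibody 24 h before it: against the receptor of granulocyte colony-stimulating factor (anti-G-CSFR, labelled VR81; kidneys 7 to 9), against complement component C5 (anti-C5, labelled BB5.1; kidneys 10 to 12) or, as the isotype control, of no stated target (kidneys 4 to 6). The fourth group was sham-operated and given no antibody (kidneys 1 to 3), so that isotype against sham joins the injury with an antibody injection. RNA was taken from all cells of kidneys perfused with saline. Neither the age of the mice nor which of a mouse's kidneys was taken is in the sources used here. Between 13200930 and 16324215 reads were counted per kidney, and the 38 carriers held 0.411% to 0.716% of them. Levels are given as CPM, the counts of a gene relative to the library's total (counts-per-million), scaled by edgeR's TMM factors. A gene is said to have risen or fallen where the p of edgeR's quasi-likelihood test, adjusted by the Benjamini-Hochberg (BH) method over all 13124 genes, was below 0.05.

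Carriers of this family are made in the cytosol, enter through the TOM channel of the outer membrane and are set into the inner membrane by the TIM22 complex. Most exchange one substrate for another: ADP for ATP, phosphate for a proton equivalent, malate for 2-oxoglutarate, aspartate for glutamate. The proximal tubule, which makes up much of the kidney cortex, is dense in mitochondria and relies on oxidative metabolism, so its ATP for reabsorption leaves mitochondria through these carriers. In whole kidney, fewer cells of a type and less RNA per cell cannot be told apart.

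The starts of the genes are shown first for 5 members whose mRNA changed by at least 2-fold in isotype against sham. Of the members that changed so, those with a match to the letters named below were picked, and Slc25a24 was added for its rise. How many of the windows shown hold a match is therefore not a result. Slc25a24 had the largest rise of the family, Slc25a25 and Slc25a21 were among the 4 largest falls, and Slc25a11 and Slc25a13 fell too. RefSeq's table of promoter windows, which reach from 250 bases before to 50 bases after a transcript's start in GRCm38.p6, had entries for 29 of the 38 members. The windows were searched on both strands for the letters TNAAGGTCA (the element bound by estrogen-related receptors), CCGGAAG (a core bound by ETS factors), GCGCATGC (a core bound by NRF1), TGANTCA (the AP-1 site) and TATAAA (the TATA box), none of which overlapped another in the windows shown. Capitals mark a match, all bases run 5′ to 3′ on the gene's strand, and the Slc25a24 window had no match. In the Slc25a21 window the match is on the opposite strand, so it reads TTTATA.
Slc25a24, chr3:109122899-109123198, plus strand: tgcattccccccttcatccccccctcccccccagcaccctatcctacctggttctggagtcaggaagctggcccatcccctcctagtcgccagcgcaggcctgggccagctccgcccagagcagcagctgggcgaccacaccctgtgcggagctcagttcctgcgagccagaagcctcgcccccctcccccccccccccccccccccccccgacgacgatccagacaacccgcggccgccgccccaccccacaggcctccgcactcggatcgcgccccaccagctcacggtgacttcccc
Slc25a25, chr2:32451421-32451720, minus strand: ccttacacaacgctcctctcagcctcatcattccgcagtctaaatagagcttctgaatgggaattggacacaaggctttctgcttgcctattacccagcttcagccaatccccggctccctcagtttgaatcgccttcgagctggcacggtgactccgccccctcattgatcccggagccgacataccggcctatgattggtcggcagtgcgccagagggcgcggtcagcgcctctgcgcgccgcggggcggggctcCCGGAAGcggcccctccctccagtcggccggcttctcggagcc
Slc25a21, chr12:57160594-57160893, minus strand: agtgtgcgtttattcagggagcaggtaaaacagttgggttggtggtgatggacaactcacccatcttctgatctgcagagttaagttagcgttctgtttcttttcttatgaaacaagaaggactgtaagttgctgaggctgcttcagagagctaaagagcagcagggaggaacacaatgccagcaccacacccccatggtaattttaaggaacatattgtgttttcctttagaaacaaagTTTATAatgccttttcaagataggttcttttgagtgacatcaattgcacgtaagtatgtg
Slc25a11, chr11:70646990-70647289, minus strand: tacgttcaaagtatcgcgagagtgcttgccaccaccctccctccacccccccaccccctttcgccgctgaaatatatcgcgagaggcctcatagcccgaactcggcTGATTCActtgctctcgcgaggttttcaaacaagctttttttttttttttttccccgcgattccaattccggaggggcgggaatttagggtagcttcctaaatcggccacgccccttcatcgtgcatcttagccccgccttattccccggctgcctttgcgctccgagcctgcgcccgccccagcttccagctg
Slc25a13, chr6:6217124-6217423, minus strand: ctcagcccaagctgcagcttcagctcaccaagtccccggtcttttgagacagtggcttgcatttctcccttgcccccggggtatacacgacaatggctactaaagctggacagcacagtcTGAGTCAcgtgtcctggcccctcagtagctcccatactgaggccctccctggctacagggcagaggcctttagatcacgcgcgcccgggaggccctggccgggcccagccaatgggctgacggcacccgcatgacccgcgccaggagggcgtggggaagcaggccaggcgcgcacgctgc

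The ETS letters stood in a window of 5 of the 29 members (17.2%) and of 2683 of 27025 genes with an entry (9.93%). The 5 were Slc25a3, Slc25a4, Slc25a17, Slc25a25 (at 1 of 3 annotated starts, the one shown) and Slc25a38. The AP-1 letters stood in 2 members (6.9%), Slc25a11 and Slc25a13, against 8.97% of all genes. The letters TATAAA, on either strand, stood in 1 member (3.45%), against 15.7% of all genes. That match, at 1 of 2 annotated starts of Slc25a21, is on the strand opposite to the gene. The estrogen-related receptor and NRF1 letters were found in no member, against 1.43% and 3.05% of all genes. These are matches of letters in a short window and describe neither binding nor regulation.

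Some kidneys stood apart from their groups. Kidney 9 of the anti-G-CSFR group and kidney 11 of the anti-C5 group lay toward the isotype kidneys. Over the 23 carriers that were lower in isotype than in sham, the mean log2 CPM relative to sham was −0.19 in kidney 9 and −0.38 in kidney 11, between −0.07 and 0.06 in the other antibody-treated kidneys and between −1.38 and −1.20 in the isotype kidneys. The same 2 kidneys held 11972 and 14281 CPM of 7 injured-tubule markers, against 1567 to 1955 CPM in the other antibody-treated kidneys, 33327 to 37889.7 CPM in isotype and 1363 to 2289 CPM in sham. Neutrophil markers (6 genes) summed to 109 CPM in kidney 11, but to 2.27 CPM in kidney 9. Results that rest on these kidneys are given with and without them.

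**Figure D1:**
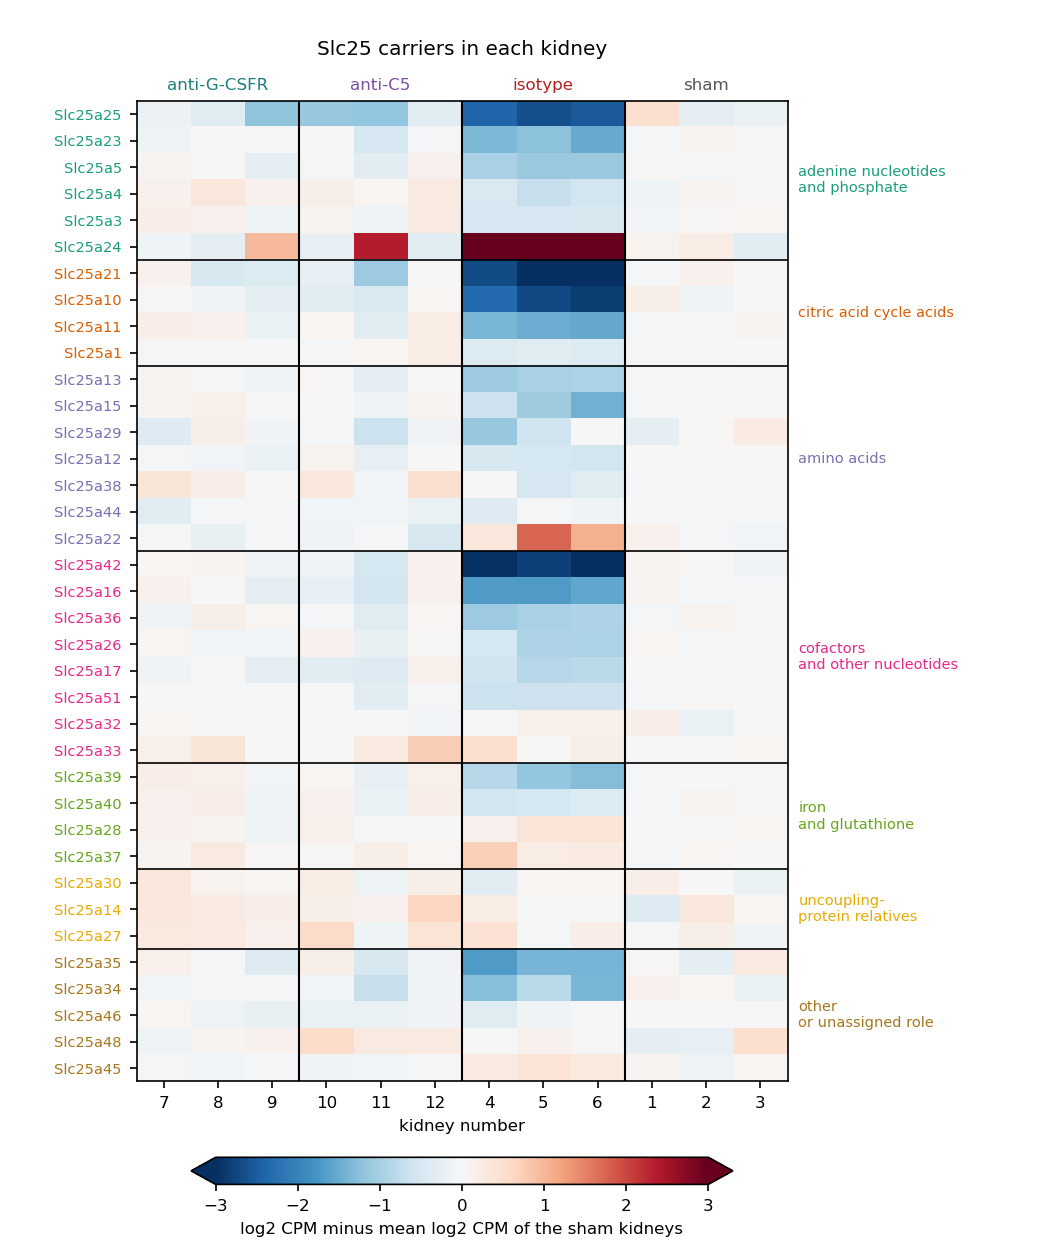
Level of 37 of the 38 Slc25 carriers (rows, coloured and grouped by what they transport) in 12 kidneys (columns), as log2 CPM minus the mean log2 CPM of the 3 sham kidneys; the colour scale ends at −3 and 3, and Slc25a24 in all isotype kidneys and Slc25a21 and Slc25a42 in some of them lie beyond it. The isotype kidneys are blue (lower) in most rows and red in few, and kidneys 9 and 11 are fainter blue in many of the blue rows. Of the carriers that rose in isotype, Slc25a24 is red in both, at 0.97 in kidney 9 and 2.36 in kidney 11. Slc25a37 is at 0.03 and 0.17 there, and Slc25a22, Slc25a28 and Slc25a45 lie slightly below sham.

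Isotype against sham asked what IRI did to the carriers. Of the 38 members, 23 fell, 5 rose and 10 did not pass the test, where 30.7% of all 13124 genes fell and 32.1% rose. The median log2 change of the members was −0.55, against 0.03 over all genes. Summed over the family, carrier mRNA stood at 3703 to 3930.3 CPM in the isotype kidneys and 7092 to 7385 CPM in the sham kidneys. The falls reached −3.15 on the log2 scale (Slc25a21), while the largest rise was 4.05 (Slc25a24). The markers of the proximal tubule moved with these falls: all 10 fell, and their sum was 2125 to 3138 CPM in isotype and 14018 to 15341 CPM in sham. The part of tubule cell number or identity in the carrier values was not tested.

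**Figure D2:**
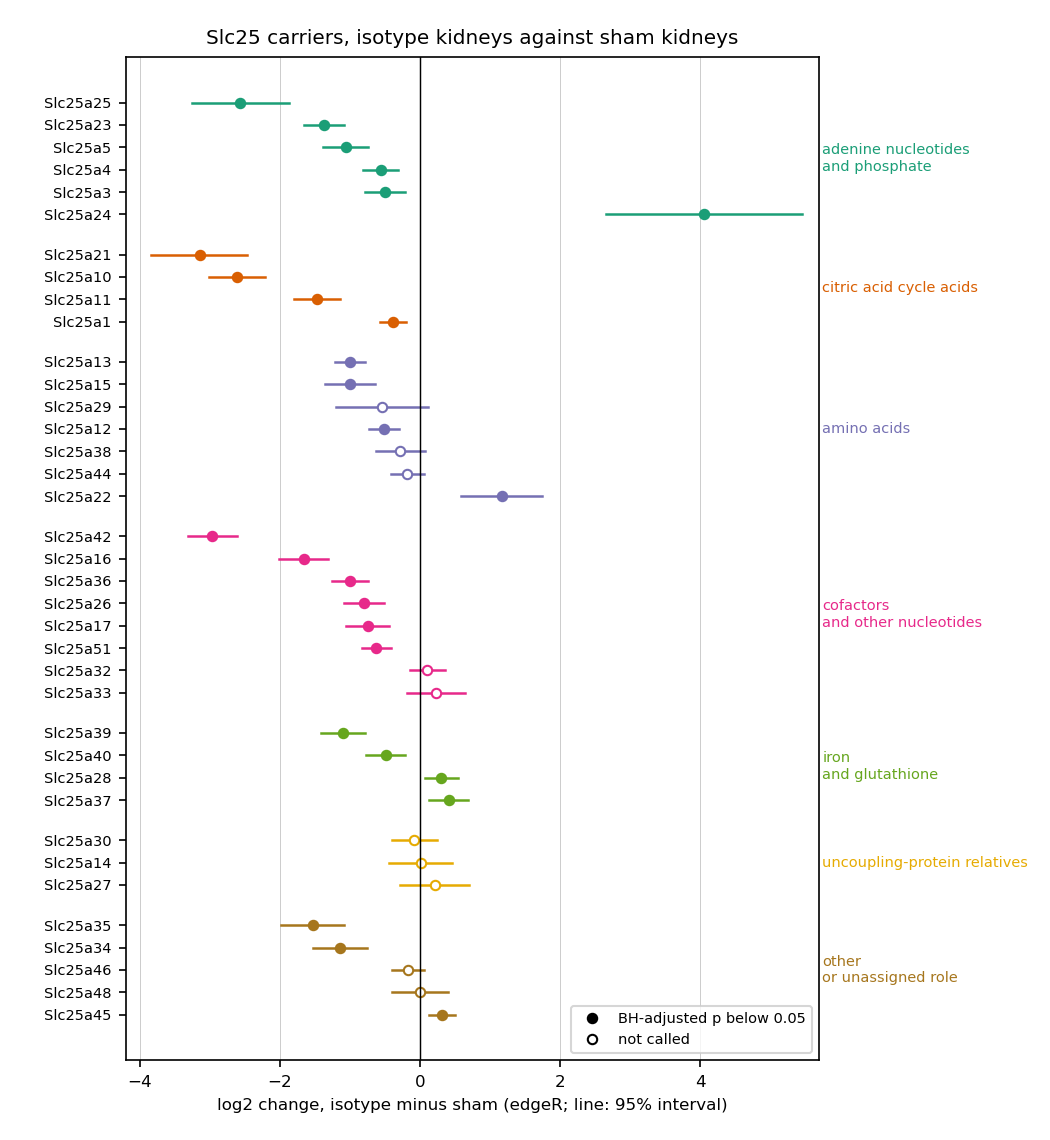
Log2 change of 37 of the 38 Slc25 carriers in isotype minus sham kidneys (3 each), by transported substrate, from edgeR's fit over all 12 libraries; lines are 95% intervals, filled points passed a BH-adjusted p of 0.05. All 4 carriers of citric acid cycle acids lie below 0, and Slc25a24 stands far to the right of the other 5 carriers of adenine nucleotides and phosphate.

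The carriers of ADP, ATP and phosphate supply ATP synthase and export its product. The 3 most highly expressed carriers per kilobase of transcript in sham kidneys were Slc25a5 at 1228 ± 44.0, Slc25a3 at 601 ± 32.6 and Slc25a39 at 414 ± 11.1 CPM per kb (SD, n = 3). The order after Slc25a5 depends on the length used: over all annotated exons Slc25a39 stood at 253, Slc25a10 at 187 and Slc25a3 at 174 CPM per kb. Slc25a5 (Entrez 11740, GRCm38 chromosome X, 36795651 to 36798807) encodes an ADP/ATP exchanger found in most tissues. It had 1605, 1527 and 1247 CPM in the anti-G-CSFR kidneys, 1468, 1213 and 1665 in the anti-C5 kidneys, 779.6, 703 and 704 in the isotype kidneys and 1559, 1460.3 and 1551 in the sham kidneys. The isotype kidneys lay below all 9 others, and their log2 change against sham was −1.06 ± 0.147 (SE; edgeR BH-adjusted p = 8.54e-05).

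Slc25a3 (Entrez 18674, chromosome 10, 91116574 to 91124059), the phosphate carrier, had 1110.3, 1069 and 887 CPM in the anti-G-CSFR kidneys, 1039, 871 and 1145 in the anti-C5 kidneys, 684, 683 and 692 in the isotype kidneys and 908, 992 and 1005 in the sham kidneys. Its fall was smaller, at −0.50 ± 0.133 (edgeR BH-adjusted p = 0.00641), and the 6 isotype and sham kidneys did not overlap. Slc25a4, the ADP/ATP exchanger best known from heart and muscle, fell by 0.56 ± 0.113 to 275 ± 20.7 CPM in isotype, against 405 ± 28.8 CPM in sham. Per kilobase, Slc25a5 made up 79.7 to 81.2% of the summed Slc25a4 and Slc25a5 level in isotype kidneys and 84.1 to 86.6% in sham kidneys. Both exchangers are near in sequence and how reads shared between genes were counted is not given, so their split is uncertain.

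The other 3 members of this group exchange ATP-Mg for phosphate, which sets the total adenine nucleotide content of the matrix, and are gated by calcium. They moved in opposite directions. Slc25a24 (Entrez 229731, GRCm38 chromosome 3, 109123149 to 109168457) had 6.08, 5.52 and 13.1 CPM in the anti-G-CSFR kidneys, 5.57, 34.6 and 5.33 in the anti-C5 kidneys, 87.7, 119.7 and 128 in the isotype kidneys and 7.17, 7.79 and 5.21 in the sham kidneys. All isotype kidneys were above all others, kidney 11 came next and kidney 9 after it. The log2 change against sham was 4.05 ± 0.639 (edgeR BH-adjusted p = 0.000215), the largest rise in the family.

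Slc25a25 (Entrez 227731, chromosome 2, 32414487 to 32451445) had 337, 294 and 164 CPM in the anti-G-CSFR kidneys, 173, 168 and 306 in the anti-C5 kidneys, 71.1, 60.7 and 66.6 in the isotype kidneys and 534, 310.5 and 330.4 in the sham kidneys, and its change of −2.57 ± 0.317 in isotype against sham was the fourth largest fall (edgeR BH-adjusted p = 4.07e-05). Sham kidney 1 was the highest of all, and kidneys 9, 10 and 11 lay between the isotype kidneys and the rest. Slc25a23 (Entrez 66972, chromosome 17, 57043711 to 57059863) had 135, 153 and 148 CPM in the anti-G-CSFR kidneys, 152, 107 and 145 in the anti-C5 kidneys, 59.4, 64.3 and 52.8 in the isotype kidneys and 148, 162 and 146 in the sham kidneys, a fall of 1.37 ± 0.132. Per kilobase, Slc25a24 made up 40.3 to 52.0% of the summed level of the 3 genes in isotype kidneys and 1.06 to 1.64% in sham kidneys, while Slc25a25 made up 24.2 to 31.8% and 63.6 to 76.7%. The sum of the 3 was 63.4 to 72.0 CPM per kb in isotype and 138 to 197 in sham. Naif1, which lies on the opposite strand within the Slc25a25 region, stood at 2.59 CPM in isotype and 3.24 in sham and was not called.

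**Figure D3:**
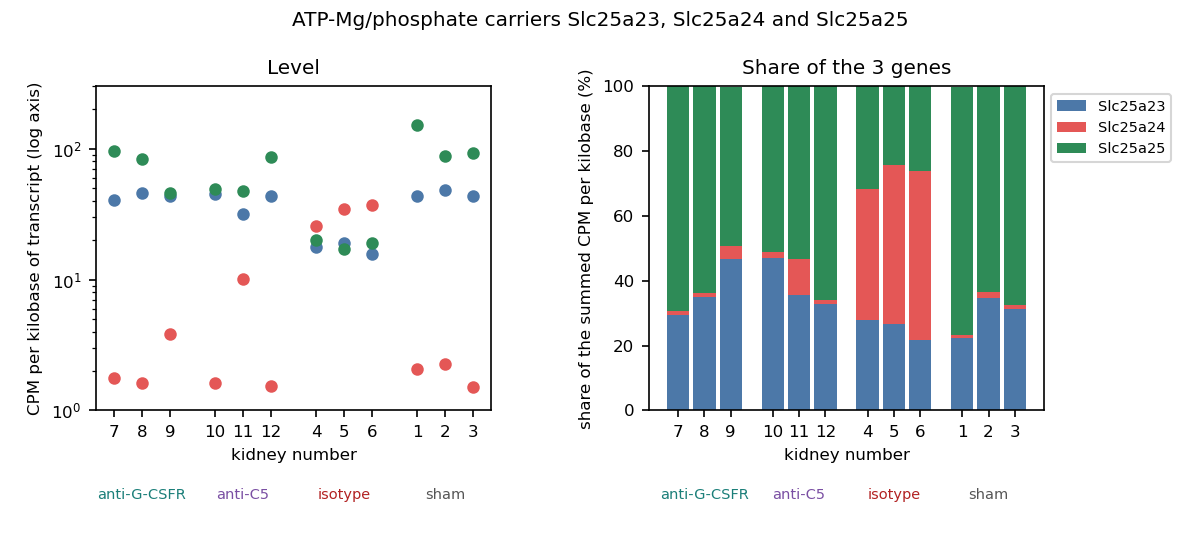
Level (left; CPM per kilobase of transcript, log axis) and share of the summed level (right; %) of the ATP-Mg/phosphate carriers Slc25a23, Slc25a24 and Slc25a25 in each of 12 kidneys; each point or bar is 1 kidney. Slc25a24 makes up 40.3 to 52.0% in the isotype kidneys, 11.3% in kidney 11, 4.05% in kidney 9 and 1.70% or less in the others.

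All 4 carriers of citric acid cycle acids fell, where 30.7% of all genes fell. Slc25a10 (Entrez 27376, GRCm38 chromosome 11, 120491840 to 120499187), which exchanges malate and succinate for phosphate and is abundant in kidney and liver, had 662, 597 and 525 CPM in the anti-G-CSFR kidneys, 511, 467 and 669 in the anti-C5 kidneys, 127, 98.4 and 89.6 in the isotype kidneys and 722, 589.7 and 625 in the sham kidneys. The isotype kidneys held the 3 lowest values by a wide gap, and the change was −2.62 ± 0.183 (edgeR BH-adjusted p = 2.12e-06). Slc25a21 (Entrez 217593, chromosome 12, 56712634 to 57197472), the carrier of oxoadipate and other oxodicarboxylates made when lysine and tryptophan are broken down, had 29.8, 19.4 and 20.5 CPM in the anti-G-CSFR kidneys, 22.7, 12.7 and 27.1 in the anti-C5 kidneys, 4.11, 3.01 and 1.91 in the isotype kidneys and 25.7, 29.5 and 26.0 in the sham kidneys. Its change of −3.15 ± 0.312 was the largest fall of the family, with kidney 11 the lowest outside the isotype group.

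Slc25a11 (Entrez 67863, chromosome 11, 70644196 to 70647479), which swaps 2-oxoglutarate for malate in the malate-aspartate shuttle, had 274, 263 and 209.9 CPM in the anti-G-CSFR kidneys, 249, 189 and 283 in the anti-C5 kidneys, 92.2, 85.4 and 83.3 in the isotype kidneys and 231, 237 and 255 in the sham kidneys. It fell by 1.47 ± 0.149 with no overlap between isotype and sham. Rnf167, a gene on the opposite strand that overlaps it, also fell, with 30.7 CPM in isotype and 58.3 CPM in sham (log2 change −0.93). Whether counting used the strand is not given, so reads of the pair may be mixed. Slc25a1, the citrate carrier that feeds cytosolic acetyl-CoA, fell least, at −0.39 ± 0.0847 (87.7 ± 2.39 CPM in isotype and 115 ± 2.85 CPM in sham). With library totals as the scaling its fall was −0.19 and was not called (edgeR BH-adjusted p = 0.0614).

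Of the 7 amino acid carriers 3 fell, 1 rose and 3 did not pass the test. Over all genes 30.7% fell and 32.1% rose, so these counts are not read as a trait of the group. Slc25a13 (Entrez 50799, chromosome 6, 6041218 to 6217173), the aspartate/glutamate exchanger citrin of liver and kidney, had 213, 196 and 187 CPM in the anti-G-CSFR kidneys, 207, 168 and 199.9 in the anti-C5 kidneys, 94.7, 102 and 104 in the isotype kidneys and 205, 203 and 196 in the sham kidneys. Isotype kidneys lay below all others, and it fell by 1.00 ± 0.101 on the log2 scale against sham (edgeR BH-adjusted p = 1.14e-05). Slc25a12, its paralog aralar, known from brain and muscle, fell by 0.52 ± 0.0971, so that Slc25a13 made up 73.3 to 75.7% of the pair's level per kilobase in isotype and 80.2 to 80.8% in sham. Slc25a15, the ornithine/citrulline exchanger, fell by 1.00 ± 0.164, to 113 ± 32.2 CPM in isotype against 226 ± 8.39 CPM in sham.

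Slc25a22 (Entrez 68267, chromosome 7, 141429744 to 141437892), a glutamate carrier, went the other way and had 23.4, 20.9 and 23.4 CPM in the anti-G-CSFR kidneys, 22.7, 23.2 and 17.2 in the anti-C5 kidneys, 31.1, 81.9 and 51.3 in the isotype kidneys and 26.9, 23.5 and 22.8 in the sham kidneys. The isotype values spread widely, kidney 5 being the highest, and the lowest was still above every other kidney. The rise was 1.17 ± 0.265 (edgeR BH-adjusted p = 0.00237). Without kidney 5 it was 0.75 (edgeR BH-adjusted p = 0.00717). Slc25a29 (basic amino acids, −0.54), Slc25a38 (glycine for haem synthesis, −0.28) and Slc25a44 (branched-chain amino acids, −0.18) did not pass the test. Slc25a29 was near the table's minimum, at 1.61 to 3.69 CPM in isotype and 3.02 to 4.38 CPM in sham. It was called at −0.89 without kidney 6 (edgeR BH-adjusted p = 0.0270), and Slc25a38 at −0.44 without kidney 4 (edgeR BH-adjusted p = 0.0307).

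Of 9 carriers of cofactors and other nucleotides 7 fell and none rose, where 30.7% of all genes fell and 32.1% rose. Slc25a42 (Entrez 73095, GRCm38 chromosome 8, 70184340 to 70212305), which brings coenzyme A into the matrix, had 134, 136 and 119 CPM in the anti-G-CSFR kidneys, 117, 89.7 and 141 in the anti-C5 kidneys, 16.4, 18.3 and 14.6 in the isotype kidneys and 137, 132 and 119 in the sham kidneys. Its change of −2.97 ± 0.160 had the smallest p of the family (edgeR BH-adjusted p = 1.66e-06). Slc25a16 (Entrez 73132, chromosome 10, 62920633 to 62946498), linked to coenzyme A or a precursor of it, had 244, 219 and 183 CPM in the anti-G-CSFR kidneys, 189, 151 and 243 in the anti-C5 kidneys, 68.1, 68.3 and 75.0 in the isotype kidneys and 237, 215 and 217 in the sham kidneys, a fall of 1.66 ± 0.163 with isotype values packed closely together.

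The NAD+ carrier Slc25a51 fell by 0.63 ± 0.0932, the S-adenosylmethionine carrier Slc25a26 by 0.80 ± 0.134 and the peroxisomal carrier Slc25a17 by 0.75 ± 0.141. Of the 2 pyrimidine nucleotide carriers Slc25a36 fell by 1.00 ± 0.120, while Slc25a33 did not pass the test, at 0.23 ± 0.188 (edgeR BH-adjusted p = 3.36e-05 and 0.304). With library totals as the scaling Slc25a33 was called higher, at 0.43 (edgeR BH-adjusted p = 0.0465). Slc25a33 made up 31.0 to 40.8% of the pair's level per kilobase in isotype and 17.2 to 20.3% in sham. The difference between the 2 changes was not tested. Slc25a32, the folate and FAD carrier, did not pass the test at 0.10 ± 0.116. Lrig1, which overlaps Slc25a26 on the opposite strand, did not pass either, at a log2 change of 0.13.

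The iron and glutathione carriers split. Slc25a39 (Entrez 68066, GRCm38 chromosome 11, 102402985 to 102407946), which brings glutathione into mitochondria, had 799, 779.8 and 659.8 CPM in the anti-G-CSFR kidneys, 726, 589 and 776 in the anti-C5 kidneys, 383, 309 and 284 in the isotype kidneys and 679, 696 and 716 in the sham kidneys. It fell by 1.10 ± 0.148 with isotype kidneys below all others, and its less abundant paralog Slc25a40 fell by 0.49 ± 0.129, to 11.3 ± 0.622 CPM in isotype against 15.9 ± 0.777 CPM in sham. Slc25a37 and Slc25a28, mitoferrin 1 and 2, which bring iron in for haem and iron-sulphur clusters, rose by 0.41 ± 0.127 and 0.30 ± 0.108 (edgeR BH-adjusted p = 0.0146 and 0.0270). Slc25a37 stood at 69.3, 49.3 and 50.3 CPM in isotype, against 40.6, 44.1 and 42.6 CPM in sham. Without kidney 4 its rise was 0.23 (edgeR BH-adjusted p = 0.0465), and without kidney 1 it was 0.38 and not called (0.0505). Slc25a28 lost its call without kidney 1, 2, 5 or 6 (edgeR BH-adjusted p = 0.0607, 0.0841, 0.0931 and 0.0955). Of 6 erythroid markers 4 were in the table and none of them passed the test, with sums of 7.11 to 43.9 CPM in isotype and 19.6 to 62.7 CPM in sham.

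**Figure D4:**
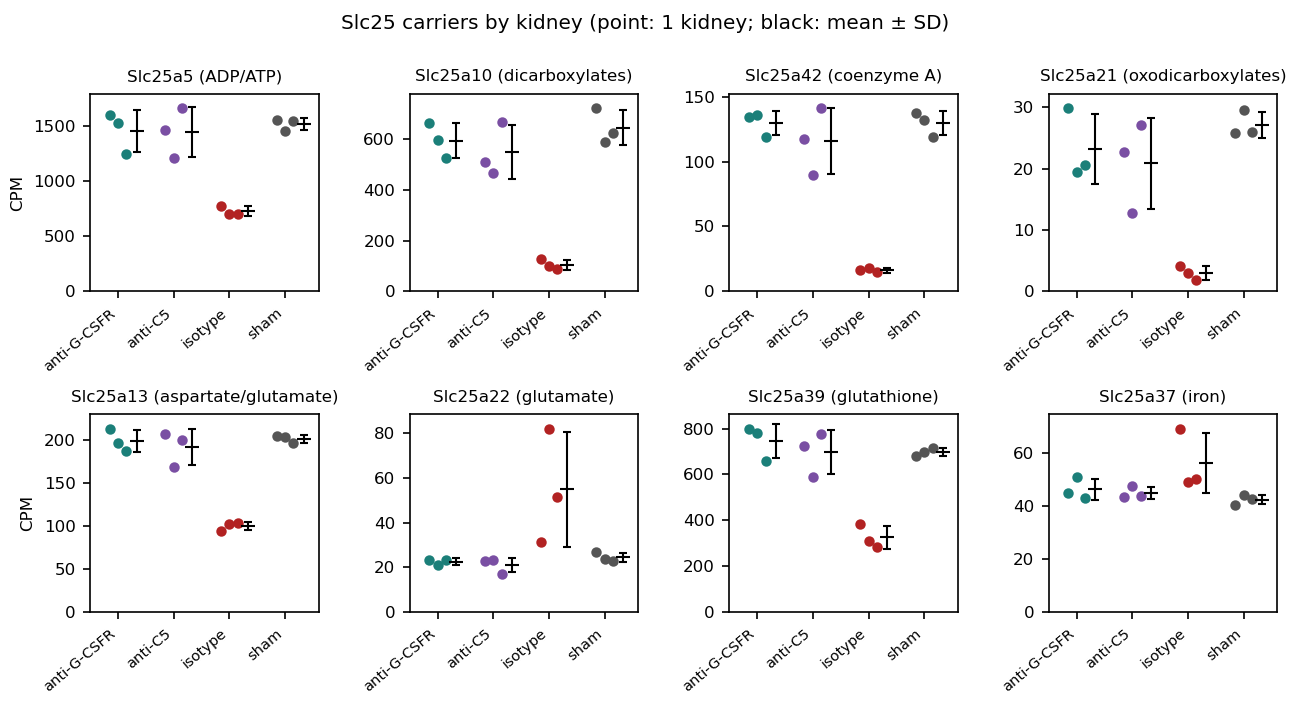
CPM of 8 Slc25 carriers in each kidney (coloured points) with the mean ± SD of each group of 3 (black). The 8 were picked for display, so how many of them separate the groups is not a result about the family. Every isotype kidney lies below all others in Slc25a5, Slc25a10, Slc25a42, Slc25a21, Slc25a13 and Slc25a39. Slc25a22 is highest in the isotype kidneys, and Slc25a37 in isotype lies above sham but overlaps anti-G-CSFR.

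None of the 3 relatives of the uncoupling proteins passed the test. Slc25a30, the kidney-expressed member, stood at 84.3 ± 12.6 CPM in isotype and 89.0 ± 13.1 CPM in sham (log2 change −0.08 ± 0.149, 95% interval −0.40 to 0.24). Slc25a14 and Slc25a27, best known from brain, stood at 6.27 ± 0.729 and 3.26 ± 0.565 CPM in isotype, against 6.24 ± 1.58 and 2.82 ± 0.313 CPM in sham.

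Of the 5 members with another or no assigned role, 2 fell and 1 rose. With 30.7% of all genes lower and 32.1% higher, these counts are not read as a trait of the group either. Slc25a35 (Entrez 71998, chromosome 11, 68968131 to 68974365) had 21.3, 18.5 and 14.6 CPM in the anti-G-CSFR kidneys, 21.7, 13.7 and 17.9 in the anti-C5 kidneys, 5.83, 7.19 and 7.20 in the isotype kidneys and 19.6, 15.6 and 23.2 in the sham kidneys, a fall of 1.53 ± 0.208. Slc25a34 (Entrez 384071, chromosome 4, 141618824 to 141623821) had 46.6, 47.6 and 47.2 CPM in the anti-G-CSFR kidneys, 46.6, 30.6 and 45.0 in the anti-C5 kidneys, 20.3, 28.0 and 19.1 in the isotype kidneys and 54.0, 52.1 and 43.1 in the sham kidneys, a fall of 1.15 ± 0.176. In both, kidney 11 was the lowest outside the isotype group. Rangrf, which overlaps Slc25a35 on the opposite strand, stood at 10.9 CPM in isotype and 10.6 CPM in sham. Slc25a45 rose by 0.32 ± 0.0858. Slc25a46, an outer-membrane protein of mitochondrial dynamics, and Slc25a48 did not pass the test, at −0.17 and 0.00.

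Anti-G-CSFR against isotype asked whether blocking the receptor before IRI altered carrier mRNA. Of the 38 members 24 rose, 4 fell and 10 did not pass the test, where 31.5% of all genes rose and 32.0% fell. The median log2 change was 0.58, against −0.02 over all genes, and the family summed to 6346 to 7629 CPM under anti-G-CSFR and 3703 to 3930.3 CPM in isotype. The largest rises were Slc25a42 at 2.98 ± 0.160 (129.8 CPM under anti-G-CSFR and 16.4 in isotype), Slc25a21 at 2.94 ± 0.313 and Slc25a10 at 2.50 ± 0.182 (edgeR BH-adjusted p = 1.62e-06, 1.96e-05 and 3.71e-06). The carriers that fell were Slc25a24 at −3.77 ± 0.629, Slc25a22 at −1.28 ± 0.266, Slc25a45 at −0.37 ± 0.0861 and Slc25a28 at −0.28 ± 0.108. All 4 carriers of citric acid cycle acids rose, as did 5 of the 6 for adenine nucleotides and phosphate and 7 of the 9 for cofactors and other nucleotides. Of the amino acid carriers 4 rose and 1 fell, of the iron and glutathione carriers 2 rose and 1 fell, of the 5 with another or no assigned role 2 rose and 1 fell, and no uncoupling-protein relative was called. With library totals as the scaling 3 of these rises were not called: Slc25a1 at 0.19, Slc25a12 at 0.19 and Slc25a38 at 0.25 (edgeR BH-adjusted p = 0.0651, 0.0640 and 0.133).

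The isotype kidneys served here and in isotype against sham, so the values of the 2 comparisons are not independent of each other. Markers moved as well: all 10 of the proximal tubule rose, with sums of 12273 to 14470.1 CPM under anti-G-CSFR and 2125 to 3138 CPM in isotype. All 6 of neutrophils fell, with sums of 1.72 to 2.71 CPM under anti-G-CSFR and 38.0 to 105 CPM in isotype. All 7 injured-tubule markers fell too, and the part of these markers' cells in the carrier values was not tested. The glycine carrier Slc25a38 rose by 0.46 ± 0.162, a call lost without kidney 5, 6, 7 or 8 (edgeR BH-adjusted p = 0.0994, 0.0771, 0.102 and 0.0577). Slc25a28 lost its call without kidney 5, 6, 8 or 9 (edgeR BH-adjusted p = 0.118, 0.121, 0.0535 and 0.187), its change without kidney 9 being −0.18, and in both genes anti-G-CSFR and isotype kidneys overlapped. Slc25a37 was called at −0.37 without kidney 5 and −0.35 without kidney 6, and Slc25a29 at 0.78 without kidney 6 (edgeR BH-adjusted p = 0.0373, 0.0465 and 0.0470). Leaving out each kidney in turn moved the family's median between 0.55 and 0.69.

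Anti-C5 against isotype asked the same of blocking C5. Here 24 members rose, 5 fell and 9 did not pass the test, where 30.5% of all genes rose and 29.8% fell, and the median log2 change was 0.56, against −0.01 over all genes. The family summed to 5889 to 7774 CPM under anti-C5 and 3703 to 3930.3 CPM in isotype. Slc25a42 rose by 2.81 ± 0.159, Slc25a21 by 2.78 ± 0.313 and Slc25a10 by 2.38 ± 0.181 (edgeR BH-adjusted p = 2.94e-06, 3.58e-05 and 5.66e-06). Slc25a24 changed by −2.88 ± 0.595 (edgeR BH-adjusted p = 0.00153), by −4.36 without kidney 11 (edgeR BH-adjusted p = 2.69e-06) and by −4.34 without kidneys 9 and 11 (edgeR BH-adjusted p = 2.04e-07). Slc25a22 fell by 1.38 ± 0.268 and Slc25a45 by 0.41 ± 0.0862. Slc25a28 and Slc25a37 were just past the threshold, at −0.27 ± 0.108 and −0.32 ± 0.127 (edgeR BH-adjusted p = 0.0491 and 0.0441), and neither was called without kidneys 9 and 11 together (edgeR BH-adjusted p = 0.126 and 0.0578). Slc25a28 also lost its call without kidney 1, 2, 3, 5, 6, 7, 8, 11 or 12 (edgeR BH-adjusted p of 0.0555 to 0.155), and Slc25a37 without kidney 1, 2, 3, 4, 7, 9, 10 or 12 (0.0562 to 0.190). Without kidney 4 the change of Slc25a37 was −0.15. Slc25a38 rose by 0.53 ± 0.162, a call lost without kidney 5 or 12 (edgeR BH-adjusted p = 0.0600 and 0.0640), and Slc25a48, at 0.32, was called only without kidney 3 (edgeR BH-adjusted p = 0.0328). Leaving out each kidney in turn moved the family's median between 0.46 and 0.67.

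By role, 4 of 4 carriers of citric acid cycle acids, 5 of 6 of adenine nucleotides and phosphate, 7 of 9 of cofactors and other nucleotides, 4 of 7 of amino acids, 2 of 4 of iron and glutathione and 2 of 5 with another or no assigned role rose under anti-C5, and again no uncoupling-protein relative was called. Proximal tubule markers, 10 of 10, rose too, with sums of 9521 to 14934 CPM under anti-C5 and 2125 to 3138 CPM in isotype. Of the 6 neutrophil markers 2 fell, with sums of 7.19 to 109 CPM under anti-C5, the highest in kidney 11, and 38.0 to 105 CPM in isotype. Of the 7 injured-tubule markers 4 fell. Beside these counts, 30.5% of all genes rose and 29.8% fell in anti-C5 against isotype.

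The antibody groups were also set against sham, and here no carrier was called. Under anti-G-CSFR against sham 0 of 38 members passed edgeR's test in either direction (0% of all genes rose and 0% fell), none had an unadjusted p below 0.05, and DESeq2 and limma-voom called none either (DESeq2 gave no adjusted p for 23 of them). The median log2 change was −0.02, against −0.01 over all genes, and for 36 of 38 members the whole 95% interval lay within a 2-fold change. The exceptions were Slc25a24 (−1.12 to 1.69) and Slc25a25 (−1.22 to 0.09). Slc25a25 stood at 265 ± 90.3 CPM under anti-G-CSFR and 392 ± 124 CPM in sham, a log2 change of −0.56. It was −0.27 without sham kidney 1 and −0.30 without kidney 9, and lay between −0.77 and −0.56 over the other kidneys left out in turn. The change of Slc25a24 was 0.28, and turned to −0.20 without kidney 9. Over all genes 778 had an unadjusted p below 0.05 in edgeR, and DESeq2 called 9, all higher. Fitted on only the 6 libraries compared, edgeR called 41 genes higher and 2 lower.

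Under anti-C5 against sham edgeR again called 0 of 38 members (0% of all genes rose and 0% fell), and DESeq2 and limma-voom called none (DESeq2 gave no adjusted p for 17 of them). The median log2 change was −0.06, against 0.01 over all genes, and the interval lay within a 2-fold change for 36 members. Slc25a25 alone had an unadjusted p below 0.05: it stood at 173, 168 and 306 CPM under anti-C5, all below the 534, 310.5 and 330.4 CPM of sham, a log2 change of −0.86 ± 0.300 (95% interval −1.52 to −0.21; unadjusted p = 0.0142; edgeR BH-adjusted p = 0.371). Without sham kidney 1 the change was −0.57, and over the other kidneys left out in turn it lay between −1.20 and −0.71. Slc25a24 was at 1.18 ± 0.622 (−0.18 to 2.53), with kidney 11 at 34.6 CPM and the other 2 at 5.57 and 5.33 CPM. Without kidney 11 its change turned to −0.30. Over all genes 1487 had an unadjusted p below 0.05 in edgeR, and DESeq2 called 7 higher and 21 lower.

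The antibodies were compared directly in anti-G-CSFR against anti-C5. EdgeR called 0 of 38 members (0% of all genes rose and 0% fell), none had an unadjusted p below 0.05, and neither DESeq2 nor limma-voom called one. The median log2 change was 0.04, against −0.01 over all genes, and for 37 of 38 members the interval of the difference lay within a 2-fold change. For Slc25a24 it ran −2.24 to 0.45, around a difference of −0.89 ± 0.616 (8.23 ± 4.22 CPM under anti-G-CSFR and 15.2 ± 16.9 CPM under anti-C5). The difference turned to 0.59 without kidney 11 and 0.10 without kidneys 9 and 11, and was −1.38 without kidney 9. The lowest unadjusted p, 0.0850, was that of Slc25a48, at 15.4, 18.1 and 18.6 CPM under anti-G-CSFR and 24.9, 20.6 and 20.6 CPM under anti-C5. A missed threshold with 3 kidneys a group does not show equal levels. Over all genes 207 had an unadjusted p below 0.05 in edgeR, and DESeq2 called 2, both lower.

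**Figure D5:**
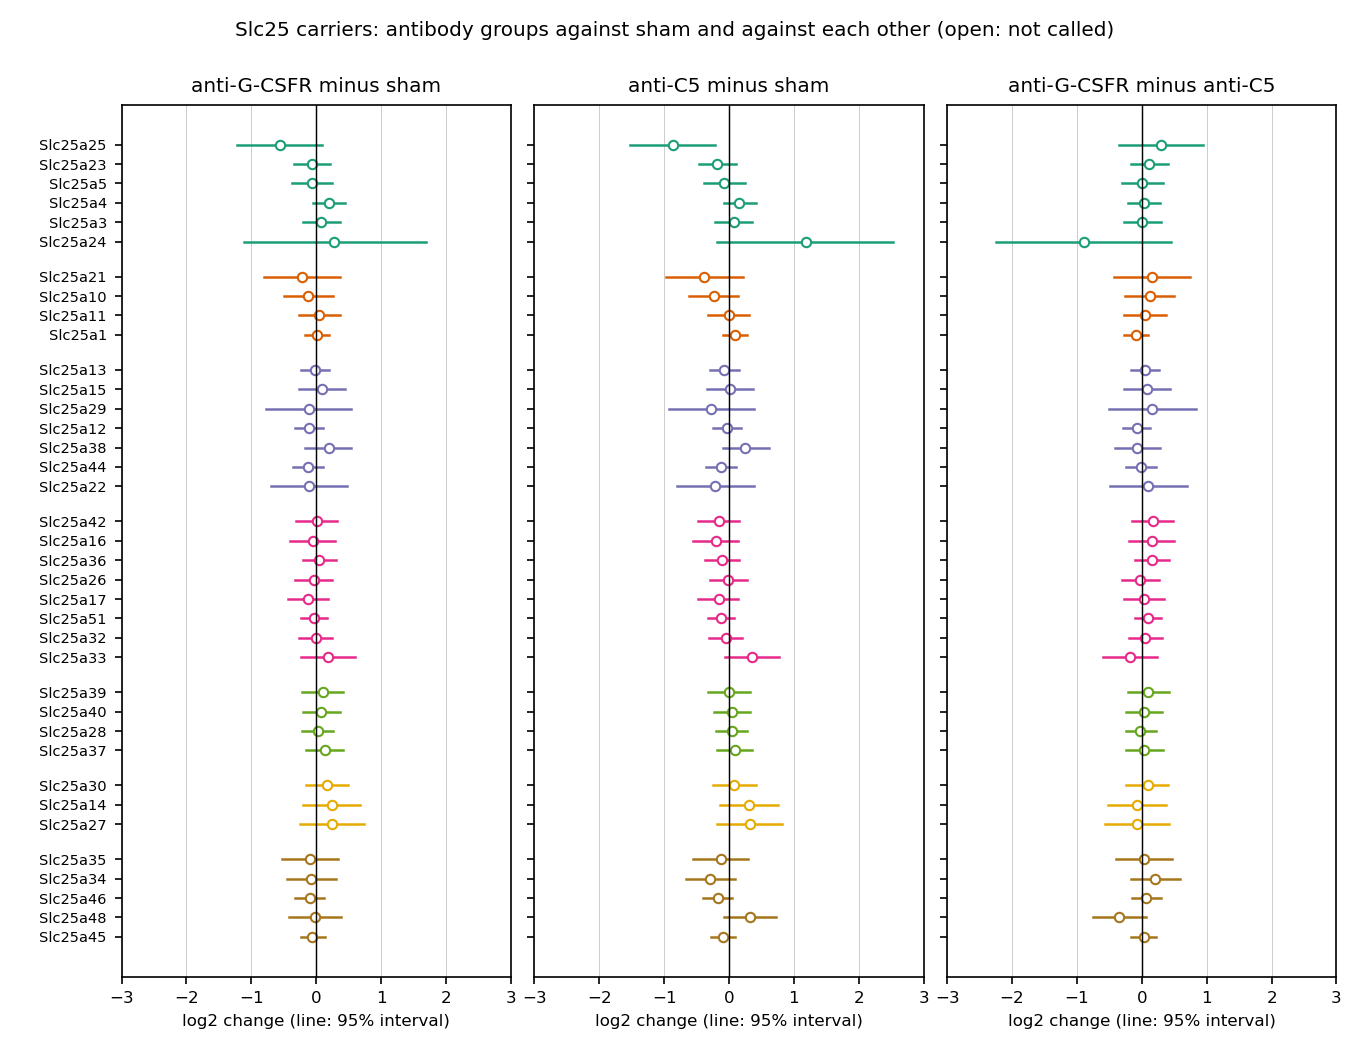
Log2 difference of 37 of the 38 Slc25 carriers between anti-G-CSFR and sham (left), anti-C5 and sham (middle) and anti-G-CSFR and anti-C5 (right), with 95% intervals from edgeR's fit; rows and colours are as in the plot of isotype against sham, and open points were not called. All points are open, and Slc25a24 has the widest interval in each panel.

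Genes that work beside the carriers were read from lists. Of 23 citric acid cycle genes 22 fell and none rose in isotype against sham (median −0.98), among them Pcx, which makes oxaloacetate from pyruvate, at 199 ± 9.64 CPM in the isotype kidneys and 949 ± 100.3 CPM in the sham kidneys (SD, n = 3; log2 change −2.25 ± 0.172). Of 14 genes of arginine, ornithine and glycine metabolism 12 fell and 1 rose (median −1.24), with Prodh2, which oxidises hydroxyproline, at −2.46 ± 0.205 and Gldc of the glycine cleavage system at −1.53 ± 0.131. Of 14 measured haem and iron-sulphur genes 11 fell and none rose (median −0.61), with Nfs1, the cysteine desulphurase, at −1.14 ± 0.141 and Alad at −0.90 ± 0.147.

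Of 12 outer-membrane channels and adenylate partners 6 fell and 2 rose (median −0.33), and Ak4, a matrix adenylate kinase, stood at 64.6 ± 3.10 CPM in the isotype kidneys and 708 ± 54.7 CPM in the sham kidneys (log2 change −3.45 ± 0.235), with Ak3 at −1.38 ± 0.150. Of 16 measured genes listed as related to the carriers outside the numbered family, most of them inner-membrane transporters, 11 fell and 2 rose. Their median was −0.80, the lowest −2.95 and the highest 1.10. The sideroflexins Sfxn2 at −1.79 ± 0.158 and Sfxn5 at −1.40 ± 0.139 had the smallest p. In the malate-aspartate shuttle 2 of 4 enzymes fell and 1 rose (median −0.28), with Mdh1 at −1.95 ± 0.192 and Mdh2 at −0.48 ± 0.115. Of 6 genes listed for citrate and connected metabolism in the cytosol 3 fell and 1 rose (median −0.44). Not all of them act on citrate itself. The aconitase gene Aco1 stood at −1.19 ± 0.130 and the malic enzyme Me1 at −1.33 ± 0.153.

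One-carbon genes were mixed, with 4 of 8 lower and 3 higher (median 0.11, lowest −2.13, highest 3.72). The serine hydroxymethyltransferases Shmt2 and Shmt1 had the smallest p and stood at −2.13 ± 0.157 and −2.03 ± 0.187. Among 13 regulators of mitochondrial biogenesis 8 fell and 3 rose (median −0.32): the coactivator gene Pprc1 changed by 1.66 ± 0.169 and Esrra, which encodes estrogen-related receptor alpha, by −1.39 ± 0.146. Of 10 fission and fusion genes 5 fell and none rose (median −0.29), Mfn2 by 0.69 ± 0.0889 and Opa1 by 0.67 ± 0.0868. Of 16 genes of the carriers' import route 3 fell and 2 rose (median −0.03), Timm29 of the TIM22 complex at −0.38 ± 0.0907 and Tomm40, the pore of the outer membrane, at 0.48 ± 0.0952. These counts stand beside the 30.7% of all genes that fell and the 32.1% that rose.

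Against isotype, 21 of the 23 citric acid cycle genes rose with either antibody (medians 0.88 with anti-G-CSFR and 0.85 with anti-C5), and none fell. Of the 14 arginine, ornithine and glycine genes 11 rose and 1 fell under each antibody (medians 1.29 and 1.28), and of the 16 import genes 7 rose under each, with 1 lower under anti-G-CSFR and 2 lower after anti-C5 (medians 0.33 and 0.26). Over all genes, 31.5% rose and 32.0% fell under anti-G-CSFR, and 30.5% rose and 29.8% fell under anti-C5. In the antibody groups against sham or between the antibodies, edgeR's fit of all 12 libraries called no gene of the 11 lists and none of all 13124 genes.

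The labelled tissue was checked by its markers. Proximal tubule, injured tubule and neutrophil markers are given above, and all 7 injured-tubule and all 6 neutrophil markers rose. Loop and distal tubule markers fell in 5 of 6 (sums 3929.9 to 5646 CPM in isotype and 9067 to 9808 CPM in sham), and collecting duct markers in 5 of 6, with 1 higher (275 to 362 CPM in isotype and 531 to 557 CPM in sham). Of 4 podocyte markers 1 fell (335 to 510.1 CPM in isotype and 402 to 420.5 CPM in sham), of 5 endothelial markers 2 rose (346 to 484 CPM in isotype and 295 to 329 CPM in sham), and of 5 macrophage markers 1 rose and 1 fell (98.5 to 125 CPM in isotype and 75.2 to 110.0 CPM in sham). Fat markers, 6 of 7 in the table, summed to 111 to 175 CPM in isotype and 91.9 to 138 CPM in sham, with 1 higher. Under anti-G-CSFR the fat sums were 52.3 to 221 CPM and under anti-C5 49.9 to 87.5 CPM, with no fat marker called against sham. Fabp4 held much of these sums, at 62.6 ± 17.8 CPM under anti-C5 and 70.4 ± 9.06 CPM in sham. The markers' median log2 change against sham was −3.95 under anti-C5 (−6.55 to −0.17) and 0.59 under anti-G-CSFR (−0.37 to 1.05). In anti-C5 against isotype 2 of the 6 fell, beside 29.8% of all genes. None of the 5 lymphocyte or the 5 skeletal muscle markers had an entry. Beside these counts, 30.7% of all genes fell and 32.1% rose in isotype against sham.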

How the data were processed

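The authors deposited raw read counts per gene for 12 kidneys, 3 in each of 4 groups. Per the labels' protocols, strand-specific single-end reads of 100 bp were sequenced on lane 8 of 1 run, and per the submitters' processing notes TopHat2 2.1.0, Bowtie2 2.2.5 and featureCounts were used with GRCm38.p4. Neither the counting strand, nor how shared reads were treated, nor the annotation release is given in those sources. The table holds 13124 Entrez genes, of which 13074 had a symbol; the 50 others held 0.0811% of counts. The third-highest CPM of any gene was at least 2.01, so low genes had been removed.

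Counts were tested in 1 fit of all 12 libraries with edgeR 4.0.16 (TMM factors, robust quasi-likelihood test, 8 residual degrees of freedom, common biological variation 16.4%) in R 4.3.3, with Benjamini-Hochberg adjustment over all genes at 0.05. The standard error is the absolute log2 change over the root of F. Levels per kilobase use the longest CCDS transcript of the GRCm38 annotation. The fit was also run on counts simulated from its own estimates of the spread. Far fewer genes changed there than in isotype against sham, and no result here rests on that run. Alternatives were DESeq2 1.42.0, limma-voom (limma 3.58.1), other scalings and filters, the 6 libraries compared, and leaving out each kidney, or kidneys 9 and 11. The lowest count of a carrier in any kidney was 29. Over all genes, kidneys of the same group differed by more than counting noise (chi-square per degree of freedom 5.45 to 65.3).

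Values of every kidney are given for carriers called in isotype against sham with a log2 change of at least 1 and no overlap, and for the 3 highest per kilobase in sham. From each list of other genes, the 2 with the smallest p are named. The members and lists were chosen with earlier results of these data known. One gene of the name pattern was left out of the members, and some members and listed genes are not reported singly here but enter the counts and medians.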

Additional observations from a re-analysis of the deposited data

How the results depend on the processing

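Over 20 alternatives, the 38 carriers kept their side of the threshold in 751 of 760 values for isotype against sham, 742 for anti-G-CSFR against isotype and 730 for anti-C5 against isotype. No called carrier changed direction. In each comparison of the antibodies with sham or with each other 0 of 760 values were called, but uncalled changes could change sign: Slc25a24 lay between −0.30 and 1.58 for anti-C5 against sham, and in isotype against sham Slc25a14 lay between −0.17 and 0.21 and Slc25a30 between −0.18 and 0.12. Library totals as scaling moved the median of all genes to 0.227, −0.233 and −0.194 and the all-gene calls to 5586 higher and 3095 lower, 3107 and 5554, and 3106 and 5111. They moved the carriers' median to −0.35 for isotype against sham (−0.59 with limma-voom) and 0.37 for anti-G-CSFR against isotype. Lower calls for anti-C5 against isotype came to 3 with limma-voom, with only the 6 libraries, and without kidneys 9 and 11. Leaving out each kidney gave 3 to 5 higher calls and a median of −0.63 to −0.51 for isotype against sham, and 3 to 4 lower calls for anti-C5 against isotype. The cause was not tested. No paired analysis was possible because the kidneys are numbered 1 to 12 and no replicate number is shared between groups.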
